A study of Homo sapiens with 4 samples.

Results

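The loops described here connect HOX genes to other places in the genome of GM12878, a human B-lymphoblastoid cell line immortalised with Epstein-Barr virus. A loop was included when at least 1 of its anchors, which are 5 kb bins, lay on the annotated body of HOXB3, HOXB5, HOXC4, HOXC5, HOXC6, HOXD8, HOXD12 or HOXD13, and each loop was counted once per cluster. This gave 37 of the 41846 loops listed in any library: 19 at the HOXB cluster, 12 at the HOXC cluster and 6 at the HOXD cluster.

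Contacts were measured by HiChIP, which ligates DNA ends that lie close together in fixed chromatin and enriches the ligated fragments bound by a chosen protein, here SMC1, a subunit of the cohesin ring. There were 4 libraries, 1 in each group: cells given 0.4 µM aphidicolin (APH, an inhibitor of the replicative DNA polymerases), cells given 0.2 mM hydroxyurea (HU, which depletes nucleotides by inhibiting ribonucleotide reductase), and cells given the matching vehicle, dimethyl sulfoxide (DMSO) for APH and water (H2O) for HU, all for 18 h. The study set these low doses, which slow replication forks, against their vehicles to see how cohesin loops respond to replication stress. All groups come from this line as the source, cell line and library names give it, although a different lymphoblastoid line stands in the titles of the samples.

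The lists held 17660 loops (DMSO), 27395 (APH), 22446 (H2O) and 21448 (HU), and 9529 loops were listed in all 4. They hold only called loops with at least 12 counts, so contacts may exist where no loop is listed, and total sequencing depth is unknown. Counts were therefore compared over loops listed in all 4 libraries and scaled by each library's total over those 9529 loops, which was 300320 (DMSO), 376948 (APH), 325634 (H2O) and 322048 (HU). With 1 library per group no test was possible. Each ratio is given on the log2 scale with an exact binomial 95% interval that covers counting error only, and H2O against DMSO shows how far the vehicle libraries differed. That contrast shares a library with each drug contrast.

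HOX genes encode homeodomain transcription factors that give cells their position along the body axis, and they lie in 4 clusters in the order in which they are used from head to tail. The clusters are textbook examples of gene regulation by chromatin looping: the ends of the HOXD cluster contact enhancers in the gene deserts on its sides, and cohesin and CTCF partition the clusters into active and silent parts. Several HOXA, HOXB and HOXC genes are also used in blood. HiChIP measures contacts, not expression, so no level of a HOX transcript is given here.

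The anchors carry other regulatory sequence besides protein-coding genes. The HOXB anchor at chr17:48575001-48580000 holds MIR10A, and the HOXC anchor from which most HOXC loops start, chr12:54030001-54035000, holds MIR615. Their mature microRNAs from RefSeq are shown because they lie inside the looping bins, with the seed (bases 2 to 8) in capitals. No 2 of the 4 share a seed.

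hsa-miR-10a-5p: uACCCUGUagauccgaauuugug

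hsa-miR-10a-3p: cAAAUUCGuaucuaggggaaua

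hsa-miR-615-3p: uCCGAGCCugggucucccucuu

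hsa-miR-615-5p: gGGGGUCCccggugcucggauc

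The RefSeq promoter table (GRCh38.p14) matched 5 of the 8 genes, all but HOXB3, HOXB5 and HOXC6. The 250 bases before the start of HOXD12 (chr2:176099545-176099794) and of HOXD8 (chr2:176129455-176129704) lie inside anchor bins and are shown for that reason. Capitals mark TAAT, the core bound by most homeodomains, searched on both strands.

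HOXD12: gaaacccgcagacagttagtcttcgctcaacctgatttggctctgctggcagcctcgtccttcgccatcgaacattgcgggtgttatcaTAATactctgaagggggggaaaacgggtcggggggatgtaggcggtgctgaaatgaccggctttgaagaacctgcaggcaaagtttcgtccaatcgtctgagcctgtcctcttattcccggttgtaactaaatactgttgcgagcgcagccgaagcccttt

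HOXD8: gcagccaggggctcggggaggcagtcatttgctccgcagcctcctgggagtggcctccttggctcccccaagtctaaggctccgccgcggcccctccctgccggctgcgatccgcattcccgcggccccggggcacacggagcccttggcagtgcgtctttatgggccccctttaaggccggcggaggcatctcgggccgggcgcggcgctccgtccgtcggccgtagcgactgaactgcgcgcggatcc

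TAAT occurs in 47.4% of the 35116 promoters in the table, so its presence in HOXD12 is common. The HOXD8 sequence is 72.4% G and C and that of HOXD12 53.2%, beside a median of 58% over all promoters. The shared promoter of HOXC4 and HOXC5 and that of HOXD13 lie in bins that anchor no listed loop.

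**Figure D1:**
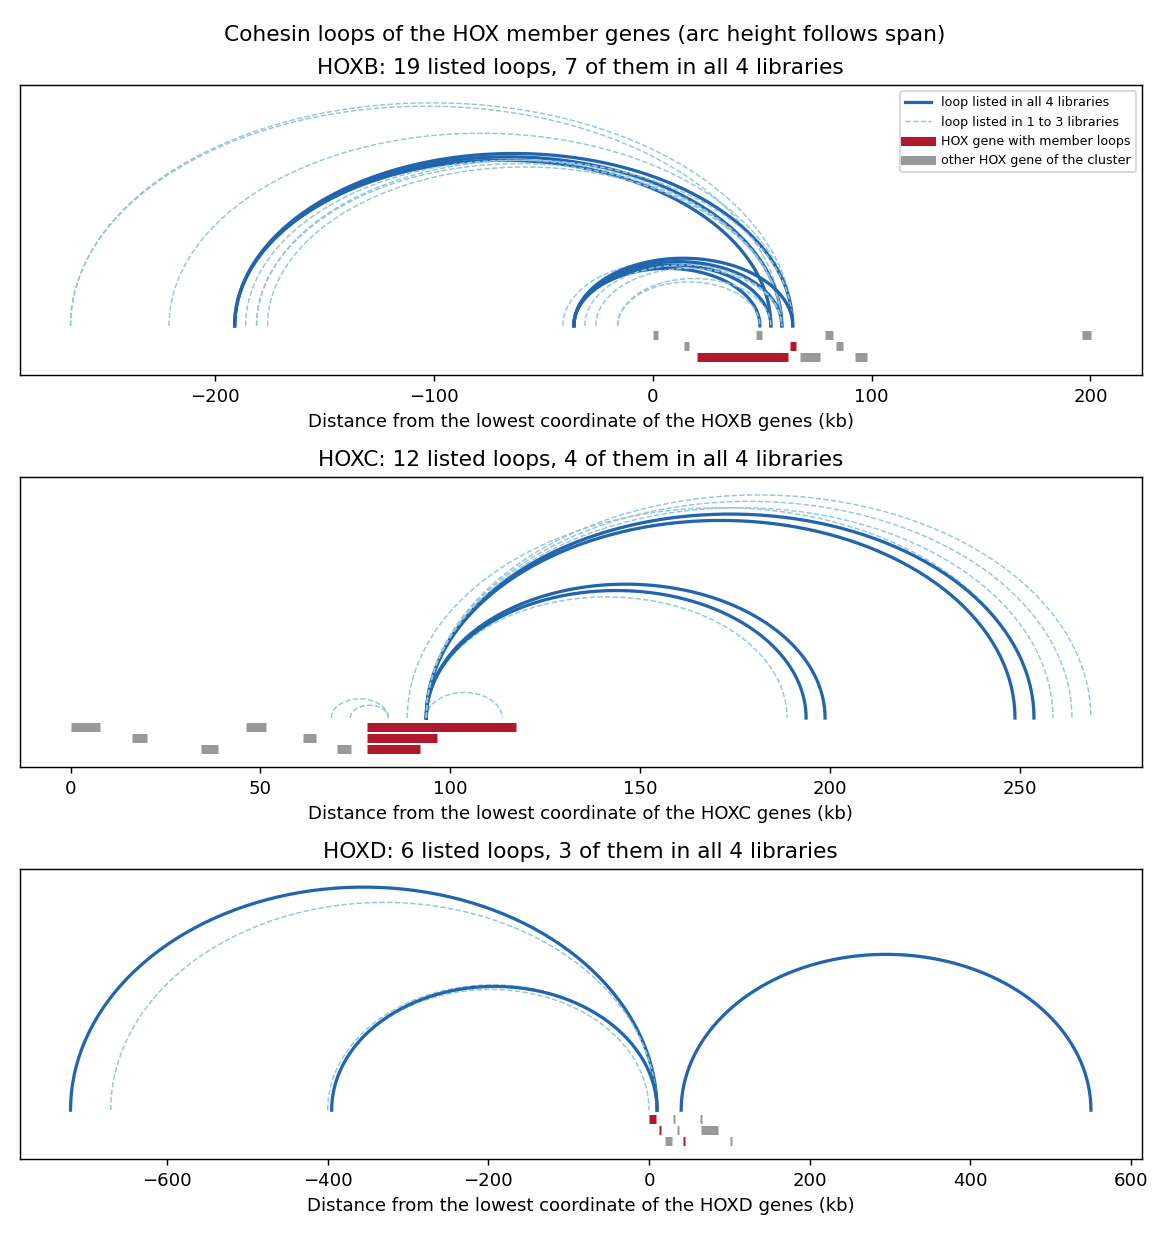
Loops of the HOX genes, drawn as arcs between their anchors against the distance in kb along each cluster. All 19 HOXB loops run to lower coordinates, 9 of 12 HOXC loops run to higher coordinates, and 5 of 6 HOXD loops run to lower coordinates.

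The 3 clusters looped in different directions and over different distances. HOXB3 and HOXB5 sent every loop towards SKAP1, an adaptor protein gene of T cell receptor signalling that lies next to the cluster. With 9 of their 12 loops, HOXC4, HOXC5 and HOXC6 contacted the region of SMUG1, a uracil-DNA glycosylase gene, 95 to 175 kb away. The HOXD loops were the longest, 395 to 730 kb, and their far anchors lay 183 kb or more from the nearest protein-coding gene.

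The HOXB anchors were 4 adjoining bins from chr17:48575001 to 48595000. HOXB3, an anterior HOX gene, has an annotated body that crosses all 4 bins (chr17:48548870-48590241), while HOXB5 (chr17:48591257-48593779) lies wholly in the last. The first bin also holds part of HOXB4, a gene best known for expanding blood stem cells, and the second and last hold the non-coding RNA genes HOXBLINC and HOXB-AS3. The 19 loops thus cannot be divided cleanly between neighbouring HOX genes.

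The HOXB loops listed in all 4 libraries numbered 7 and went to only a pair of places. The first was chr17:48335001-48340000, inside SKAP1, with 3 loops of 245 to 255 kb. The second was chr17:48490001-48495000, a bin with no annotated gene, 33.5 kb from HOXB1 and 44.9 kb from SKAP1, with 4 loops of 85 to 100 kb.

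Raw counts of the 250 kb loop from HOXB3 to SKAP1 were 24 (DMSO), 28 (APH), 31 (H2O) and 15 (HU). The 255 kb loop from the bin of HOXB5 had 23 (DMSO), 17 (APH), 24 (H2O) and 12 (HU). The 245 kb loop had 15 (DMSO), 13 (APH), 17 (H2O) and 14 (HU). HU was the lowest library in the 2 loops with more counts, and APH in the 245 kb loop.

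The loops to the gene-free bin did not order the libraries in the same way. The 90 kb loop had the most counts of the HOXB loops, with 33 (DMSO), 37 (APH), 34 (H2O) and 33 (HU). The 95 kb loop had 24 (DMSO), 40 (APH), 36 (H2O) and 26 (HU). The 2 end loops of the set differed from these: the 85 kb loop from the bin of HOXB4 and MIR10A was lowest in DMSO at 15, with 20 (APH), 22 (H2O) and 18 (HU), and the 100 kb loop from the bin of HOXB5 was highest in DMSO at 20, with 17 (APH), 14 (H2O) and 16 (HU).

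Summed over the 7 loops, the HOXB counts per 100000 shared-loop counts were 51.3 (DMSO, Poisson 95% interval 43.5 to 60.05), 45.6 (APH, 39.1 to 53.0), 54.7 (H2O, 46.9 to 63.3) and 41.6 (HU, 34.9 to 49.3). HU was lowest and H2O highest, and their intervals overlapped slightly. The log2 ratio was -0.39 (-0.73 to -0.06) for HU against H2O, -0.17 (-0.49 to 0.15) for APH against DMSO and 0.09 (-0.23 to 0.41) for H2O against DMSO. Scaling by all listed loops instead lowers the APH to DMSO ratio of every loop by the same amount, a log2 shift of -0.38, and the intervals of all 3 clusters then lie below 0: -0.55 (-0.87 to -0.22) for HOXB, -0.44 (-0.80 to -0.07) for HOXC and -0.56 (-1.03 to -0.09) for HOXD. Against DMSO in place of H2O the HU ratio was -0.30 (-0.65 to 0.042), an interval that includes no difference.

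When the 7 loops were divided by far anchor, a grouping chosen after the counts had been seen, the lower HU count lay mostly in the SKAP1 loops. Their 3 loops together had 62 (DMSO), 58 (APH), 72 (H2O) and 41 (HU) counts. The log2 ratio of HU was -0.80 (-1.39 to -0.22) against H2O and -0.70 (-1.30 to -0.11) against DMSO. For APH it was -0.42 (-0.97 to 0.12) against DMSO and -0.52 (-1.05 to -0.0040) against H2O. The 4 loops to the gene-free bin had 92 (DMSO), 114 (APH), 106 (H2O) and 93 (HU) counts, and their HU to H2O ratio was -0.17 (-0.59 to 0.24). The difference between the sets was -0.62 (-1.31 to 0.060) in HU against H2O and -0.41 (-1.06 to 0.25) in APH against DMSO, and both intervals include 0.

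HOXB5, which marks long-term blood stem cells in mice, was represented by 2 of these loops with 43 (DMSO), 34 (APH), 38 (H2O) and 28 (HU) counts. DMSO was the highest library and HU the lowest. Its log2 ratio was -0.67 (-1.36 to 0.02) in APH against DMSO and -0.42 (-1.18 to 0.32) in HU against H2O, both with intervals that include 0.

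The other 12 HOXB loops were each missing from at least 1 list and held 12 to 21 counts where listed, close to the minimum. H2O alone listed 4 of them, with 12 to 14 counts: 3 loops of 240 to 245 kb to SKAP1 bins and a loop of 95 kb. The longest, 330 kb from the bin of HOXB5 to another part of SKAP1, had 13 counts (APH) and 21 (H2O). In all, HOXB had 11 (DMSO), 12 (APH), 15 (H2O) and 9 (HU) listed loops.

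**Figure D2:**
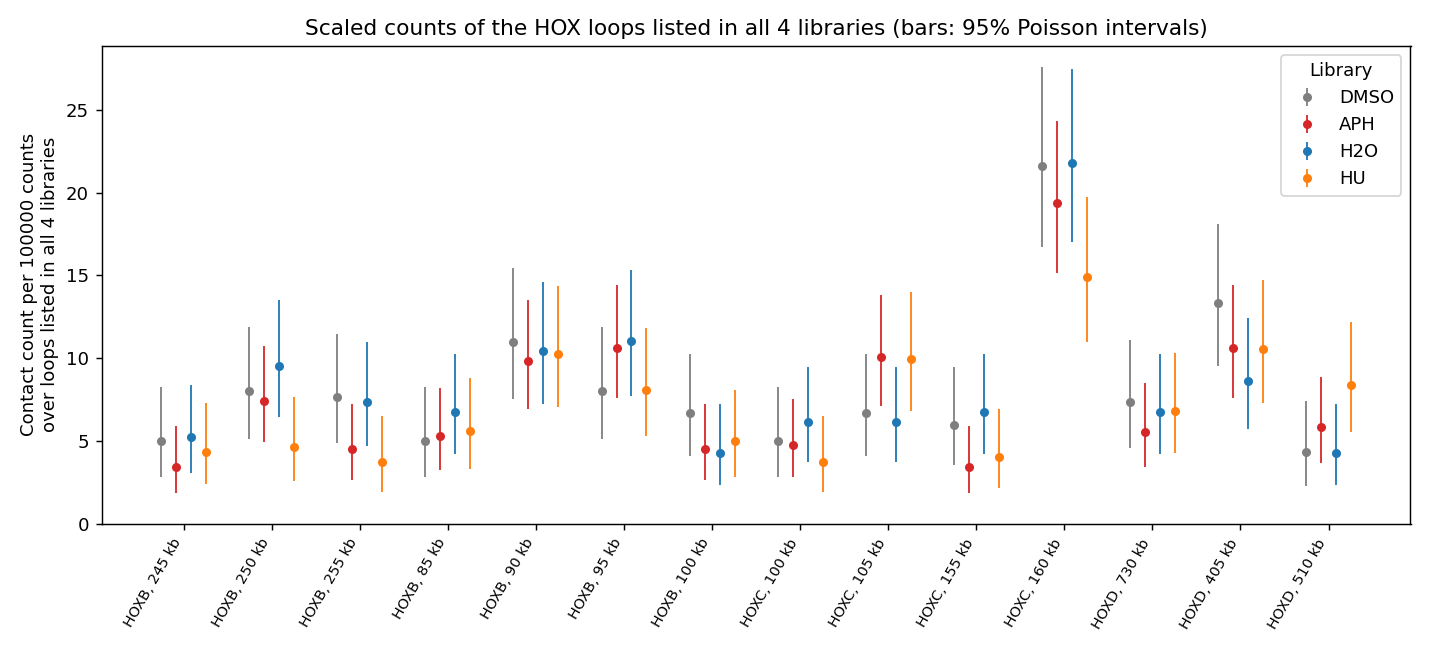
Scaled counts of the 14 HOX loops listed in all 4 libraries, per 100000 counts over shared loops, with Poisson 95% intervals and 1 colour per library. The HOXB sum is 54.7 in H2O and 41.6 in HU, the HOXC sum 40.8 and 32.6, and the HOXD sum 19.7 and 25.8.

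At the HOXC cluster a single bin was the hub. The bin chr12:54030001-54035000 lies in the bodies of HOXC4 and HOXC5 and overlaps the last 823 bases of HOXC6, 3 neighbouring genes that are annotated from the same start at chr12:54016888 and so cannot be told apart. It anchored 6 (DMSO), 8 (APH), 5 (H2O) and 6 (HU) loops. Only 2.50% (DMSO), 1.33% (APH), 5.66% (H2O) and 2.61% (HU) of all anchors in those lists had as many, and the median anchor had 1.

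The hub's 4 loops listed in all libraries went to a pair of stretches. The nearer, chr12:54130001-54140000, begins in the non-coding RNA gene LINC02381 and ends 18.2 kb from SMUG1. The farther, chr12:54185001-54195000, covers 1 end of SMUG1 and lies 35.9 kb from CBX5, the gene for heterochromatin protein HP1 alpha.

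The 160 kb loop to the far stretch had the most counts of any HOX loop, with 65 (DMSO), 73 (APH), 71 (H2O) and 48 (HU). The 155 kb loop beside it had 18 (DMSO), 13 (APH), 22 (H2O) and 13 (HU). HU was the lowest library in the first and shared the lowest count with APH in the second. To the near stretch, the 105 kb loop had 20 (DMSO), 38 (APH), 20 (H2O) and 32 (HU). The 100 kb loop had 15 (DMSO), 18 (APH), 20 (H2O) and 12 (HU). The 105 kb loop was higher in both drug libraries than in both vehicles, and the 100 kb loop was not.

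Summed over the 4 loops, HOXC counts per 100000 were 39.3 (DMSO, 32.5 to 47.1), 37.7 (APH, 31.7 to 44.4), 40.8 (H2O, 34.2 to 48.4) and 32.6 (HU, 26.7 to 39.5). HU was again lowest, and all 4 intervals overlapped. The log2 ratio was -0.33 (-0.71 to 0.05) for HU against H2O, -0.06 (-0.42 to 0.30) for APH against DMSO and 0.06 (-0.31 to 0.43) for H2O against DMSO.

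Divided by far anchor, again after the counts had been seen, the 2 loops to the SMUG1 end had 83 (DMSO), 86 (APH), 93 (H2O) and 61 (HU) counts. Their log2 ratio in HU was -0.59 (-1.08 to -0.11) against H2O and -0.55 (-1.05 to -0.051) against DMSO, and in APH -0.28 (-0.73 to 0.18) against DMSO. The 2 loops to the LINC02381 end had 35 (DMSO), 56 (APH), 40 (H2O) and 44 (HU) counts, with 0.15 (-0.50 to 0.81) in HU and 0.35 (-0.28 to 1.003) in APH. The difference between the sets was -0.75 (-1.52 to 0.028) in HU and -0.63 (-1.38 to 0.12) in APH, and both intervals include 0.

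HOXC8, a thoracic HOX gene of the same cluster, also looped towards SMUG1, and its 2 shared loops had 41 (DMSO), 63 (APH), 44 (H2O) and 53 (HU) counts. The HU to H2O ratio of the SMUG1-end loops of HOXC4 to HOXC6 was lower than that of the HOXC8 loops by a log2 difference of -0.88 (-1.62 to -0.14). In APH against DMSO the difference was -0.57 (-1.28 to 0.15). This comparison too was chosen after the counts had been seen.

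APH alone listed 4 HOXC loops, 3 of them short. They were a loop of 20 kb within HOXC4 with 43 counts, loops of 15 and 10 kb to HOXC8 with 30 and 16 counts, and a loop of 95 kb with 17. The APH list was also the longest, and 51.3% of its loops spanned under 100 kb, beside 45.3% (DMSO), 45.6% (H2O) and 51.6% (HU). The part that list length has in these APH loops was not tested. The 8 HOXC loops missing from at least 1 list held 13 to 43 counts, and the cluster had 7 (DMSO), 11 (APH), 6 (H2O) and 6 (HU) listed loops.

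The HOXD loops started from both ends of the measured part of the cluster and ran outwards. HOXD13 (chr2:176087487-176095944) and HOXD12 (chr2:176099795-176102489), which pattern digits and genitalia, share the bin chr2:176095001-176100000. From it 2 loops were listed in all libraries, both to lower coordinates. That bin overlaps HOXD12 by only 206 bases. HOXD8 (chr2:176129705-176132695) is touched by the bin chr2:176125001-176130000, which overlaps it by 296 bases and also holds the non-coding gene LOC100129455. The only loop of this bin ran 510 kb the other way, to a bin of the non-coding RNA genes LINC01116 and LINC01117. It is called the HOXD8 loop here, but it cannot be assigned to HOXD8 alone.

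The 405 kb loop of HOXD12 and HOXD13, to a bin with the non-coding gene LOC107985962, had 40 (DMSO), 40 (APH), 28 (H2O) and 34 (HU) counts. Their 730 kb loop, towards ATP5MC3, had 22 (DMSO), 21 (APH), 22 (H2O) and 22 (HU). The HOXD8 loop had 13 (DMSO), 22 (APH), 14 (H2O) and 27 (HU), higher in both drug libraries than in both vehicles.

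Summed over the 3 loops, HOXD counts per 100000 were 24.97 (DMSO, 19.6 to 31.3), 22.02 (APH, 17.5 to 27.3), 19.7 (H2O, 15.1 to 25.1) and 25.8 (HU, 20.5 to 31.9). All 4 intervals overlapped, and H2O was the lowest library. The log2 ratio was 0.39 (-0.10 to 0.88) for HU against H2O, -0.18 (-0.65 to 0.29) for APH against DMSO and -0.35 (-0.85 to 0.16) for H2O against DMSO. The vehicles thus differed about as much as HU and H2O did, and HU against DMSO gave 0.05 (-0.42 to 0.52).

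For the HOXD8 loop the log2 ratio was 0.96 (-0.02 to 2.01) in HU against H2O and 0.43 (-0.62 to 1.54) in APH against DMSO. For HOXD12 and HOXD13, whose loops listed in all 4 libraries are the same, it was 0.18 (-0.40 to 0.76) and -0.35 (-0.89 to 0.18). The difference between HOXD8 and the other pair was 0.78 in each drug contrast, with intervals of -0.30 to 1.87 (HU) and -0.33 to 1.90 (APH) that include 0. The 3 HOXD loops missing from a list held 12 to 20 counts, and 1 of them, 395 kb from a bin with HOXD13 alone, was listed in APH (20 counts) and H2O (13).

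**Figure D3:**
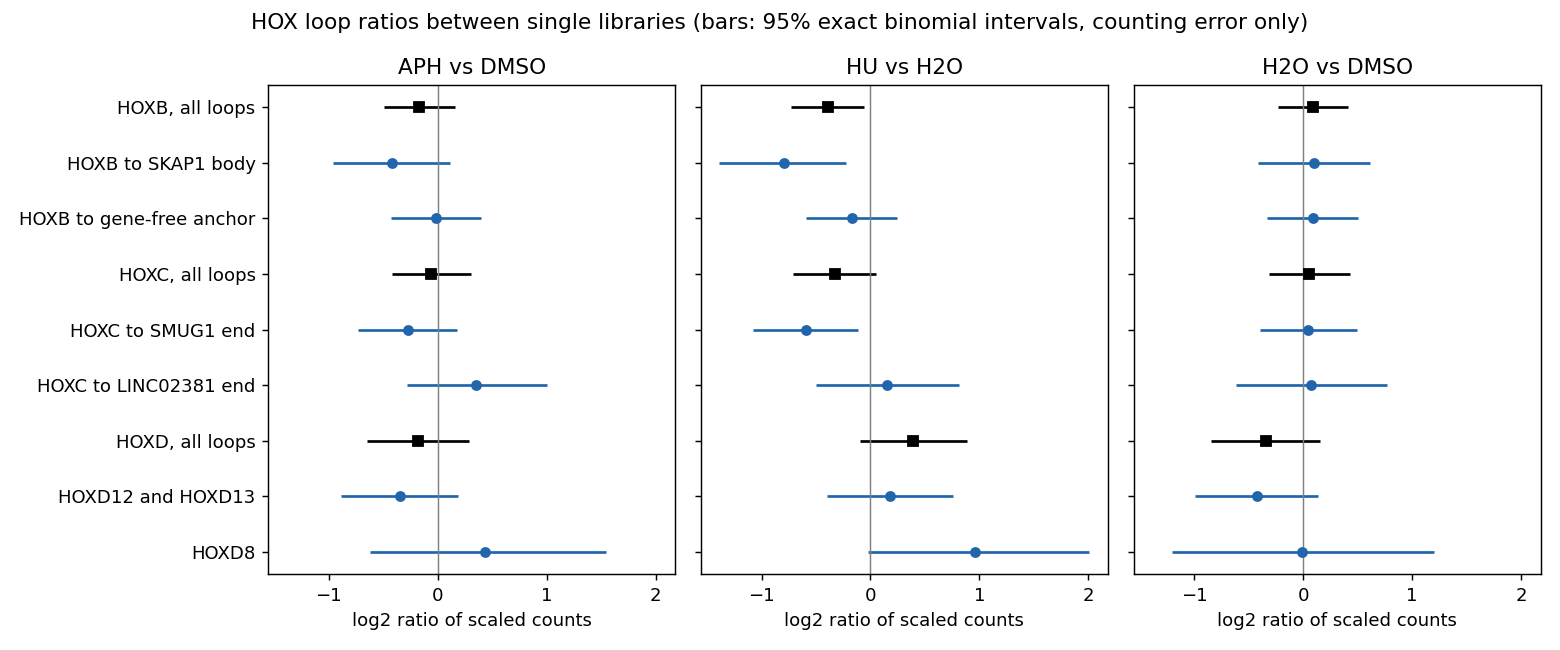
Log2 ratio of scaled counts with 95% intervals for the HOX clusters and other sets of loops, for APH against DMSO, HU against H2O and H2O against DMSO. The HOXB interval in HU against H2O, -0.73 to -0.06, lies below 0, and the other cluster intervals include 0.

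The 8 genes and 14 loops were set beside all genes and loops measured in the same way. Few HOX intervals excluded a ratio of 1, and more HOX genes were lower in HU than higher. In APH against DMSO, 0 of the 8 genes had an interval that excluded a ratio of 1, where 6.89% of 4831 protein-coding genes did, and 0 of 14 loops where 5.5% of 9529 did. In HU against H2O, 1 of 8 genes (HOXB3) did, where 11.3% did, and 2 of 14 loops where 7.38% did. In H2O against DMSO none of the genes did, where 3.13% did, and none of the loops, where 2.62% did. The 8 genes hold only 5 distinct sets of loops, so they are not independent. HOXC4, HOXC5 and HOXC6 have the same 4 shared loops, and the 2 of HOXB5 are among the 7 of HOXB3.

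Lower by more than 20% were 3 of the 8 genes in APH against DMSO (HOXB5, HOXD12 and HOXD13), where 15.9% of all genes were. In HU against H2O they were 5 of 8 (HOXB3, HOXB5, HOXC4, HOXC5 and HOXC6, from overlapping loops), where 16.4% were. In H2O against DMSO they were 2 of 8 (HOXD12 and HOXD13), where 12.6% were. HOXD8 was higher by more than 25% in APH and in HU, where 14.4% and 17.7% of all genes were. Between the vehicles none of the 8 was, where 12.2% were. The median log2 ratio of the 14 loops was -0.16 in APH and -0.27 in HU, beside -0.02 and -0.0067 over all shared loops, with 10 and 9 of the 14 below 0. Of all 9529 shared loops, 52.7% (APH) and 50.2% (HU) were below 0.

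Loops with no anchor on the 8 genes but within 500 kb of each cluster gave a local comparison. They include the 4 shared loops of HOXB13 and the 2 of HOXC8. Beside HOXB, 20 flanking loops had a log2 ratio of -0.08 (-0.22 to 0.06) in HU against H2O. Beside HOXC, 18 flanking loops had -0.04 (-0.17 to 0.09), and beside HOXD, 5 had 0.08 (-0.27 to 0.42). The HOXC flank was at 0.20 (0.07 to 0.34) in APH against DMSO and at 0.19 (0.06 to 0.33) between the vehicles. Both intervals lie above 0, and those of the HOXB and HOXD flanks in these contrasts include 0. The difference of cluster and flank in HU was -0.31 (-0.67 to 0.040) for HOXB, -0.29 (-0.68 to 0.11) for HOXC and 0.31 (-0.26 to 0.89) for HOXD. These intervals include 0, as did those in APH against DMSO, where the differences were -0.26 (HOXB), -0.26 (HOXC) and -0.089 (HOXD).

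Loops of SKAP1 that do not end on a HOX gene had 57 (DMSO), 87 (APH), 67 (H2O) and 62 (HU) counts. Their log2 ratio in HU against H2O was -0.10 (-0.62 to 0.42), beside -0.80 for the SKAP1 loops of HOXB. The difference between these sets was -0.70 (-1.45 to 0.044) in HU against H2O and -0.71 (-1.41 to 0.00012) in APH against DMSO, and both intervals include 0.

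Long loops were lower than short loops under both drugs over the whole series. Pooled over all shared loops, those under 100 kb had a log2 ratio of 0.08 in APH and 0.08 in HU, and those of 500 kb or more had -0.24 and -0.16. Of the 14 HOX loops, 3 spanned under 100 kb, 6 spanned 100 to 250 kb, 3 spanned 250 to 500 kb and 2 spanned 500 kb or more. Taken relative to loops of like span, the HU to H2O ratio was -0.39 (-0.72 to -0.06) for HOXB and -0.27 (-0.65 to 0.11) for HOXC. For HOXD it was 0.54 (0.050 to 1.03), an interval that then excluded 0. H2O was the lowest library for HOXD, and HU against DMSO without this correction gave 0.05 (-0.42 to 0.52). In APH against DMSO the corrected ratios were -0.15 (HOXB), -0.02 (HOXC) and 0.02 (HOXD), all with intervals that include 0.

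The deposited lists also hold a count expected for each pair of bins, against which the HOX loops could be placed. The 405 kb HOXD loop exceeded its expected count 21.5-fold (DMSO), 15.0-fold (APH), 15.6-fold (H2O) and 16.3-fold (HU). All listed loops of 250 to 500 kb had medians of 8.64 (DMSO), 8.25 (APH), 8.51 (H2O) and 8.43 (HU). The 160 kb HOXC loop exceeded its expected count 13.2-fold (DMSO), 12.1-fold (APH), 15.3-fold (H2O) and 9.11-fold (HU).

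By this measure the 255 kb loop from the bin of HOXB5 to SKAP1 stood at 11.3 (DMSO), 7.57 (APH), 11.1 (H2O) and 6.12 (HU), lower in both drug libraries. The HOXD8 loop stood at 8.93 (DMSO), 14.0 (APH), 9.56 (H2O) and 17.5 (HU), higher in both. The short APH loops of the HOXC cluster had 30, 16 and 43 counts but exceeded their expected counts only 2.44-fold, 2.66-fold and 2.62-fold. Over the 93 listings of HOX loops, 56 lay above the median of their span class and library. A loop listed in several libraries counts several times here. At 100 to 250 kb, 3 of 9 (DMSO), 4 of 10 (APH), 10 of 12 (H2O) and 2 of 8 (HU) did. In the same order, 4 of 6, 5 of 9, 5 of 6 and 4 of 4 did under 100 kb. At 250 to 500 kb, 3 of 4, 3 of 6, 5 of 6 and 1 of 4 did. At 500 kb or more, 2 of 3, 2 of 2, 1 of 2 and 2 of 2 did.

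Among the 37 HOX loops counted here, 14, or 37.8%, were listed in all 4 libraries, beside 22.8% of all loops. Every gene chosen here has a loop listed in all 4 libraries, and most other HOX genes have none. The higher share therefore cannot be read as a property of HOX loops in general. DMSO alone listed 2 of the HOX loops, APH alone 5, H2O alone 5 and HU alone 1. These made up 9.09% (DMSO), 18.5% (APH), 19.2% (H2O) and 5.56% (HU) of the HOX loops in each list, beside 13.3%, 28.0%, 22.2% and 19.4% of all loops there. The counts are small, the choice of genes also bears on these shares, and the differences were not tested.

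Of the 31 HOX genes other than the 8, 9 had an anchor in any list and 3 in a loop listed in all 4, or 29.0% and 9.68%. Each of the 8 has a loop listed in all 4, so leaving them out lowers these shares. Over all 39 HOX genes the shares were 43.6% and 28.2%. Of all 19970 protein-coding genes, 47.4% had an anchor in any list and 24.2% in a loop listed in all 4. With the 8 included, HOXA had 1 of 11 genes with an anchor, HOXB 7 of 10, HOXC 6 of 9 and HOXD 3 of 9. The HOXA gene was HOXA13, the most posterior of its cluster.

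The patterns most like those of the clusters over the 4 libraries were found among 3388 places by the Euclidean distance of centred log2 scaled counts. Nearest to HOXB were SLFN12L (distance 0.028; counts 170, 195, 198 and 149 in DMSO, APH, H2O and HU), NT5E (0.031) and VMP1 (0.033). Nearest to HOXC were PARD3 (0.017), CCDC182 (0.017) and FLI1 (0.035), an ETS factor gene of blood cells. Nearest to HOXD were DDX25 (0.034), FBLN1 (0.059) and CSPG4 (0.064). With 4 libraries, such distances describe these counts only.

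Genes whose products work with or on HOX genes were taken from lists, to be read beside the 47.4% of all protein-coding genes with an anchor, the 24.2% with a shared loop and the all-gene median log2 ratios of -0.015 in APH and 0.0024 in HU. Of all genes with a shared loop, 6.89% (APH) and 11.3% (HU) had an interval that excluded 1. Of 9 TALE homeodomain genes, whose proteins bind DNA beside HOX proteins, 5 had an anchor and only PKNOX2 a loop listed in all 4 libraries, with 20 (DMSO), 24 (APH), 14 (H2O) and 23 (HU) counts. Of 30 genes for Polycomb complexes, which keep HOX genes silent, 20 had an anchor and 8 a shared loop. Their median log2 ratio was -0.13 in APH and -0.09 in HU, and no interval excluded 1. They ran from RBBP4 (-0.59 in APH, -0.34 in HU) to PHC2 (0.15 in APH) and CBX2 (0.77 in HU).

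Of 12 Trithorax group genes, which keep HOX genes active, with DOT1L, 7 had an anchor and 4 a shared loop, with medians of -0.01 in APH and 0.12 in HU and no interval that excluded 1. Their highest ratio was that of KMT2D in APH (0.11) and of KMT2B in HU (0.14), and the lowest that of KDM6B in both (-0.15 and 0.02).

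Of 27 paralogous genes that flank the clusters, 19 had an anchor and 11 a shared loop, with medians of 0.11 in APH and -0.05 in HU. No interval excluded 1 in APH. In HU, SKAP1 (-0.42), ATP5MC2 and ATF7 (-0.29 each, from the same loops) were lower with intervals below 0. Of all genes with a shared loop, 11.3% had an interval in HU that excluded 1, in either direction. SKAP1 had 119 (DMSO), 145 (APH), 139 (H2O) and 103 (HU) counts, which include its loops to HOXB. Without those loops its HU to H2O ratio was -0.10 (-0.62 to 0.42), an interval that includes 0. The highest ratio in both drugs was that of NFE2L2 (0.50 and 0.23), and the lowest in APH that of HNRNPA3 (-0.68).

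As a check of the cell type, 8 of 9 B cell marker genes had an anchor and 4 a shared loop, beside 5 and 2 of 6 T cell genes and 3 and 0 of 4 myeloid genes. Loops do not measure expression, so these counts neither establish nor contradict the labelled cell type.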

How the data were processed

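Per the labels' protocols, chromatin of GM12878 was cross-linked with formaldehyde and EGS, prepared with the Arima-HiC+ kit and precipitated with an SMC1 antibody. Per the submitters' processing notes, bcl2fastq 2.17, MACS3 3.0.1 and the build hg38 were used. For the aligner and the loop caller, the name is not given in the sources used here. Deposited lists have no header, so columns were identified from their values: contact counts, whole and unnormalized, with a minimum of 12 for bins of 5 kb that lie 10 to 1000 kb apart. The authors also deposited an expected count, treated as a background signal, and a score that was not used. The authors deposited an adjusted p-value for each loop, below 0.01 throughout, from a caller's model that the files do not name. A list of called loops is not a depth.

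For loops present in every list, counts were summed by cluster or gene, scaled by the library total over such loops, and compared as log2 ratios. The 95% intervals are exact conditional binomial for ratios, exact Poisson for sums and normal approximations on the log scale for differences. They cover counting error only, since 1 library per group gives no measure of variation between libraries. Nothing in the files marks which reads are copies of 1 molecule, so the counts may include such copies, which the intervals do not allow for. The labels give 1 library per group, so no p-value was computed. Gene bodies came from RefSeq (GRCh38.p14, the same assembly as hg38), and an anchor was assigned to every gene it overlapped. The interval procedure was tested on simulated counts that varied by counting error only, so the test does not cover variation between libraries. Python 3.11.15, numpy 2.4.6, pandas 2.3.3, scipy 1.17.1 and matplotlib 3.10.9 were used.

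Genes named are the 8 HOX genes, other HOX genes with an anchor, protein-coding genes on opposite anchors, the highest and lowest of each list, and the 3 places most like each cluster, for which at least 100 counts over the 4 libraries were required and HOX genes were left out. Other genes named are landmarks near an anchor. The members and lists were chosen with earlier results of these data known. Alternatives changed the scaling, vehicle, loops admitted, minimum count, gene assignment, span correction and the strongest loop.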

Additional observations from a re-analysis of the deposited data

Results flagged for a closer look

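APH against DMSO and HU against H2O were compared for 43 clusters, genes, anchors and loops, and 3 of them have intervals of the difference that exclude 0. They are the HOXB3 bin, HOXB13 and the HOXB genes other than the 8, which have the same loops as HOXB13 once the bins of the 8 are left out. Many of the 43 share loops, so they are not independent. The share of all genes or loops whose interval excludes 0 in this difference was not computed. The 3 can therefore not be read as more than counting error alone would give.

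HOXB13, the most posterior gene of the HOXB cluster and known from prostate development, had 4 shared loops with 73 (DMSO), 120 (APH), 99 (H2O) and 83 (HU) counts. The 70 and 155 kb loops among them start from a bin that also lies on PRAC1 and PRAC2. They cannot be assigned to HOXB13 alone, although all 4 are counted under HOXB13 here. The HOXB13 log2 ratio was 0.39 (-0.04 to 0.83) in APH and -0.24 (-0.68 to 0.20) in HU, and the difference was 0.63 (0.033 to 1.22). Between the vehicles its ratio was 0.32 (-0.13 to 0.78), and APH against HU directly gave 0.30 (-0.11 to 0.73).

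The HOXB3 bin chr17:48585001-48590000 had 48 (DMSO), 68 (APH), 67 (H2O) and 41 (HU) counts over its shared loops. Its log2 ratio was 0.17 (-0.38 to 0.74) in APH and -0.69 (-1.29 to -0.11) in HU, and the difference was 0.87 (0.094 to 1.64). Between the vehicles its ratio was 0.36 (-0.19 to 0.93), and APH against HU directly gave 0.50 (-0.08 to 1.10).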

How the results depend on the processing

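Of 66 alternatives to the 6 cluster ratios, 63 stayed within the interval of the value reported. The alternatives share loops and counts, so they are not independent. Some changed nothing: anchors within 5 kb of gene ends gave the same loops and ratios for HOXC and HOXD. Admitting any HOX gene of the cluster did so for HOXD. With counts scaled by all listed loops, APH against DMSO was -0.55 (-0.87 to -0.22) for HOXB, -0.44 (-0.80 to -0.07) for HOXC and -0.56 (-1.03 to -0.09) for HOXD, so all 3 intervals excluded 0, where with the scaling used none did. That scaling shifts every loop by -0.38. With anchors matched within 1 bin, HU against H2O was -0.79 for HOXB (147 against 266 counts). The cause of this last difference was not tested. HOXB was below 0 in HU against H2O under 11 of 11 alternatives (-0.79 to -0.23), but its interval included 0 against the other vehicle (-0.30) and with loops of at least 24 counts (-0.23). HOXC in HU ran from -0.66 to -0.11 and HOXD in HU from 0.05 to 0.54. In APH the ranges crossed 0: -0.55 to 0.10 (HOXB), -0.44 to 0.05 (HOXC) and -0.56 to 0.16 (HOXD). Listed loops of at least 24 counts were 3 (DMSO), 3 (APH), 4 (H2O) and 2 (HU) for HOXB, 1, 4, 1 and 2 for HOXC, and 1 in DMSO, APH and H2O for HOXD. With the minimum raised in step with depth, HOXB in APH had 6 and HOXD in H2O 3. The other 11 loop numbers stayed within 1.5 times. No paired analysis was possible because each group has 1 library, so the groups share fewer than 2 replicate numbers. Most HOX loops held few counts, which limits every ratio of a single loop.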

Other observations

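HOX genes outside the 8 had 19 further loops. HOXA13 was joined to HIBADH over 380 kb with 17 (DMSO), 14 (APH) and 15 (H2O) counts and was not listed in HU, and to JAZF1 over 725 kb with 22 counts in H2O alone. HOXB8 was joined to COPZ2 over 590 kb with 13 counts in H2O and 13 in HU. HOXB13 was joined to TTLL6 over 70 kb with 17 (DMSO), 37 (APH), 20 (H2O) and 30 (HU) counts, and over 65 kb with 15 (DMSO), 30 (APH), 14 (H2O) and 20 (HU). Both of these loops were higher in each drug library than in either vehicle. The anchor bin of the 70 kb loop, chr17:48720001-48725000, also lies on PRAC1 and PRAC2, and so does that of the 155 kb loop below. Neither of these 2 loops can be assigned to HOXB13 alone. The HOXB13 loop of 155 kb, to a bin with no protein-coding gene, had 27 (DMSO), 34 (APH), 33 (H2O) and 18 (HU). That of 150 kb had 14 (DMSO), 19 (APH), 32 (H2O) and 15 (HU). Neither of these was higher in each drug library than in either vehicle.

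HOXC8 was joined over 185 kb to the bin that also holds the strongest loop of HOXC4 to HOXC6, with 19 (DMSO), 35 (APH), 29 (H2O) and 38 (HU) counts. The 160 kb loop of HOXC4 to HOXC6 to that bin was lowest in HU, and the HOXC8 loop highest there.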
